A study of Mus musculus with 33 samples.

Results

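The genes described here are the mouse glutathione transferases and glutathione peroxidases, together with the enzymes that make and recycle glutathione. The choice was made with earlier results of these data known. It used symbols: Gst genes of the alpha, kappa, mu, omega, pi, theta and zeta classes, Mgst genes, Gpx genes, Gclc, Gclm, Gss and Gsr. This gave 37 of the 52631 genes in the table, namely 25 transferases, 8 peroxidases and 4 genes of synthesis and recycling. The 34 genes that reached 1 FPKM in at least 3 libraries were tested, among 16508 genes in all. FPKM counts sequenced fragments scaled to transcript length and to library size. The 3 genes below that limit were Gpx5, Gpx6 and Gstt4. Gpx5 and Gpx6 stayed at or below 0.165 and 0.200 FPKM, and Gstt4 was listed at 0 in all 33 libraries.

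Glutathione is a small cysteine-containing peptide and the main soluble thiol of cells. Glutathione transferases join it to electrophiles such as lipid aldehydes and drugs, and the membrane-bound microsomal family also acts in the making of leukotrienes and in the reduction of lipid peroxides. Glutathione peroxidases use it to reduce hydrogen peroxide and lipid hydroperoxides, Gclc with Gclm and then Gss make it from amino acids, and Gsr returns its oxidised form to the reduced one. Many of these genes carry antioxidant response elements, the short sites through which the factor Nrf2 acts, and several transferases are abundant in liver and other endoderm-derived tissue.

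RNA was sequenced from 33 libraries in 11 groups of 3, all from strain 129S2/SvPas according to the labels. Embryonic stem cells (mES) were kept with LIF at 1000 U/mL and 15% serum on a layer of inactivated embryonic fibroblasts. The RA groups were such cells moved to gelatin and given 10 µM all-trans retinoic acid for 10 days in 15% serum, then no inducer for 6 days in 10% serum, with samples taken on days 4, 7, 10 and 16. The RA/CHIR groups had the same schedule with 5 µM CHIR beside the retinoic acid. CHIR commonly denotes an inhibitor of the kinase GSK3 that is used to switch on Wnt/beta-catenin signalling. The labels call the RA cells SMC-like and the RA/CHIR cells XEN-like. Untreated smooth muscle cells (SMC) and extraembryonic endoderm cells (XEN), both grown in 15% serum, are the references, so day and serum differ between them and the day 16 groups. Whether feeders differ as well is not given here. Whether the 3 replicates of a group were separate cultures is not stated, so p-values may cover technical spread only.

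Each library had between 11573 and 13662 genes at 1 FPKM or more, and the fragments behind a value are unknown because no counts were used. All 33 libraries were most like a library of their own group. The defining markers fit the labels: 6 pluripotency genes summed to between 6998 and 8186 FPKM in mES and to between 1.47 and 1.85 FPKM in XEN, 7 extraembryonic endoderm genes summed to between 975 and 1058 FPKM in XEN, and 6 smooth muscle genes summed to at least 17185 FPKM in every SMC library. The day 16 groups held RNA of several lists. In RA/CHIR-16d the pluripotency sum was 958 to 1002 FPKM against 38.5 to 66.3 FPKM in RA-16d, 7 visceral endoderm genes summed to between 953 and 1002 FPKM against 51.0 to 57.3 FPKM, and 7 fibroblast genes to between 414 and 449 FPKM against 2345 to 3041 FPKM. Extraembryonic endoderm genes summed to 1905 to 2074 FPKM in RA/CHIR-16d against 402 to 439 FPKM in RA-16d, and smooth muscle genes to 446 to 462 against 7378 to 8323 FPKM. On day 4 the endoderm lists were instead higher with RA alone. Extraembryonic endoderm genes had 902 to 931 FPKM against 488 to 508 FPKM with CHIR, and visceral endoderm genes 192 to 199 against 30.8 to 33.4 FPKM. Fibroblast genes summed to between 34.1 and 55.2 FPKM in mES, which were grown on feeders. In such bulk samples fewer cells of a type and less RNA per cell cannot be told apart, and the part of these other cell types in the results below was not tested.

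Upstream sequence is shown for the genes on which the comparison of neighbours and of family members turns: Gstm1, the mu class gene with the largest difference between the arms, Gstm5, which was called on no day although it lies in the same cluster, and Mgst2, the gene with the largest rise. The stretches come from the RefSeq promoter table of build GRCm38.p6, run 5′ to 3′ in the direction of the gene, and hold no annotated exon base of it. That of Mgst2 lies in the first intron of a GENCODE transcript that starts further upstream, and ends just before the first exon of other transcripts of the gene. Capitals mark the antioxidant response element core, TGACNNNGC on either strand.
Gstm1 upstream, chr3:108017974-108018223, strand -: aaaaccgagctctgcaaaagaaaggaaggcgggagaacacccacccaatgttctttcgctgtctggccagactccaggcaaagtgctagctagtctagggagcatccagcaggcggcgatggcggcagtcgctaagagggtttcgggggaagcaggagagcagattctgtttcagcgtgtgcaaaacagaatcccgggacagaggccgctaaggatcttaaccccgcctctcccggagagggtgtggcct
Gstm5 upstream, chr3:107895604-107895820, strand +: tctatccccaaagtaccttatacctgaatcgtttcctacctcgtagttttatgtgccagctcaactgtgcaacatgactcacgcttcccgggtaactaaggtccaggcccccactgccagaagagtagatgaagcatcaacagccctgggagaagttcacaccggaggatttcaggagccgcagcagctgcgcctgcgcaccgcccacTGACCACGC
Mgst2 upstream, chr3:51660929-51661177, strand +: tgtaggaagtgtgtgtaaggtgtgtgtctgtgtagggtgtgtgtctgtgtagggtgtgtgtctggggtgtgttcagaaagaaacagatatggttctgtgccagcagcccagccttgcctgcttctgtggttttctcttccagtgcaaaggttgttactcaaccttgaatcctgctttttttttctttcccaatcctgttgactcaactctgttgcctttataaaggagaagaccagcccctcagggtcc

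Of the 37 genes, 33 had a promoter in that table, which spans 250 bases before to 50 bases after each start. The core TGACNNNGC was found for 5 of these 33 genes (15.2%), against 13.99% of all 27025 genes in the table. The TCF/LEF core CTTTGAT, searched on both strands as well, was found for 0 of the 33 genes and for 4.29% of all genes. The 5 matches are shown with 10 bases on each side, with the match in capitals, because they belong to genes that moved in different ways. The matches of Gclm and Mgst1 lie on the opposite strand.
Gstm5 match, chr3:107895802-107895830: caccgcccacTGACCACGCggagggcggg
Gstm7 match, chr3:107931725-107931753: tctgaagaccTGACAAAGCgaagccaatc
Gsta3 match, chr1:21240454-21240482: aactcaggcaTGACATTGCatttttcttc
Mgst1 match, chr6:138140461-138140489: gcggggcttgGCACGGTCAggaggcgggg
Gclm match, chr3:122245413-122245441: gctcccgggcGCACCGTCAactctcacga
Of these 5 genes, Gstm7, Gsta3 and Mgst1 fell with CHIR on at least 1 day, Gclm rose on day 10, and Gstm5 was not called. A match describes the letters only.

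The main comparison asks how adding CHIR to retinoic acid altered these genes on each day. A gene was called when its change in log2(FPKM + 1) was 1 or more in either direction and limma's p, after Benjamini-Hochberg adjustment across the 16508 genes, was under 0.05. Counts of genes that rose or fell are counts of such calls. On day 4, 1 of the 34 genes was higher and 5 were lower in RA/CHIR (17.6% called), against 7.63% of all genes called, 3.34% higher and 4.28% lower. On day 7, 2 were higher and 7 lower (26.5%), against 10.7% of all genes, 4.06% higher and 6.61% lower. On day 10, 7 were higher and 6 lower (38.2%), against 15.4% of all genes, 6.35% higher and 9.07% lower. On day 16, 11 were higher and 2 lower (38.2%), against 21.3% of all genes, 8.41% higher and 12.9% lower. Gsta2 reached 1 FPKM in RA/CHIR-16d libraries only and so passed the filter through the group where it is high, and without it 10 were higher on day 16. The median change of the 34 genes was -0.16, -0.21, -0.07 and 0.42 on the 4 days, while the median over all genes lay between -0.0051 and 0.0109. Calls thus leaned to lower levels with CHIR early and to higher levels on day 16. The 3 RA/CHIR libraries did not overlap the 3 RA libraries for 26, 24, 25 and 24 of the 34 genes on the 4 days, against 55.2%, 56.7%, 62.4% and 62.9% of all genes.

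Over the 4 days, 20 of the 34 genes (58.8%) were called at least once, against 30.2% of all genes. The 20 include Gsta2, which passed the filter through RA/CHIR-16d alone, so its call on day 16 is a description. Gstm1, Gstp2 and Gstt1 were called on all 4 days. Those called in 1 direction only were 10 genes that were higher (Gpx2, Gstp2, Gstp3, Mgst2, Mgst3, Gsta2, Gsto1, Gclm, Gstt2 and Gstm6) and 6 that were lower (Gstt1, Gstt3, Mgst1, Gsta3, Gsta4 and Gstm7). Gstm1, Gstm3, Gsta1 and Gpx3 were lower on an early day and higher on day 16. The other 14 genes were called on no day, and they include Gpx1, Gpx4, Gstp1, Gclc, Gss and Gsr.

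**Figure D1:**
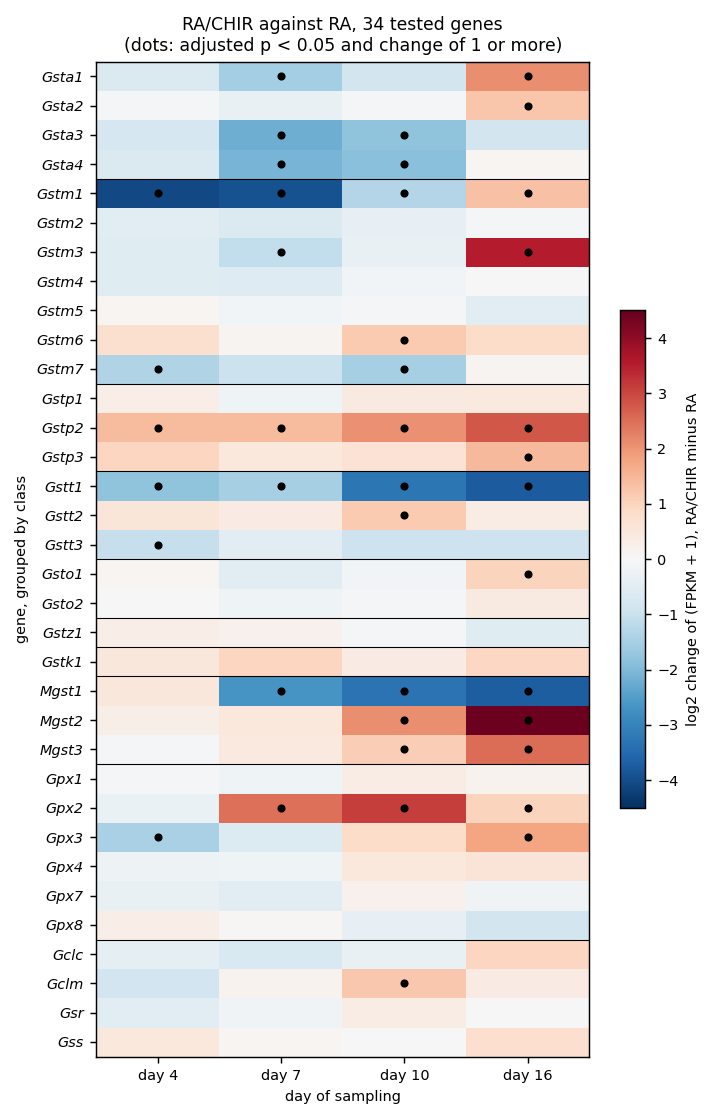
Change in log2(FPKM + 1), RA/CHIR minus RA (colour), of the 34 tested genes (rows, by class) on the 4 sampling days (columns), each from 3 libraries per arm. Dots mark calls. Gstm1 goes from -4.04 on day 4 to 1.32 on day 16, Mgst1 falls to -3.71 while Mgst2 reaches 4.41 on day 16, and Gstt1 is lower on all 4 days.

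The mu class genes diverged from each other. Its 7 genes conjugate glutathione to many electrophiles and lie side by side within 149.1 kb of chromosome 3 (107895821 to 108044894, GRCm38), in the order Gstm5, Gstm7, Gstm6, Gstm3, Gstm2, Gstm1 and Gstm4. Gstm1 (ENSMUSG00000058135) was at 22.2, 22.5 and 19.8 FPKM in mES. In the RA arm it stood at 303, 295 and 283 FPKM on day 4 and at 484, 489 and 479.5 FPKM on day 7. With CHIR it stood at 16.2, 17.8 and 16.6 FPKM on day 4 and at 31.3, 28.7 and 32.3 FPKM on day 7. Every RA library was thus far above every RA/CHIR library on both days, and the RA/CHIR-4d libraries were below all 3 mES libraries. The change with CHIR was -4.04 ± 0.07 on day 4 (adjusted p = 2.26e-24) and -3.93 ± 0.07 on day 7 (adjusted p = 3.37e-24), where ± is the standard error.

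The arms then crossed for Gstm1. On day 10 the RA libraries had 139, 124 and 134 FPKM and the RA/CHIR libraries 56.1, 51.9 and 50.8 FPKM, a change of -1.31 ± 0.07. On day 16 the RA libraries had 33.8, 26.9 and 27.5 FPKM and the RA/CHIR libraries 69.9, 76.2 and 76.9 FPKM, a change of 1.32 ± 0.07 (adjusted p = 6.63e-15). The groups did not overlap on any of the 4 days, and the direction on day 16 was opposite to that on days 4, 7 and 10. The references stood at 27.7 ± 0.78 FPKM in XEN and 37.9 ± 2.25 FPKM in SMC (SD, n = 3), well under the RA peak. Of the 50-base stretches in Gstm1 transcripts, 18.9% also occur in other genes, mostly in the pseudogene Gstm2-ps1, which reached at most 1.82 FPKM in any library.

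The other 6 genes of the cluster were each called on at most 2 of the 4 days. Gstm2, the next gene along, was called on no day, with changes of -0.52, -0.66, -0.37 and -0.10 over the 4 days. Gstm4 on the other side had changes between -0.56 and 0.00, and Gstm5 at the far end had changes between -0.47 and 0.09. Gstm7 was lower with CHIR on days 4 and 10, by -1.34 ± 0.20 and -1.49 ± 0.20, at levels of at most 9.69 FPKM. Gstm3 turned in the same direction as Gstm1. It was lower on day 7 (-1.09 ± 0.24, from a mean of 1.29 FPKM) and higher on day 16, when it stood at 14.3, 15.7 and 14.5 FPKM with CHIR and at 0.525, 0.491 and 0.107 FPKM without (3.54 ± 0.24). The day 7 call of Gstm3 was lost without RA-7d replicate 1 and with quantile normalization (-0.996 and -0.998). Gstm3 shares 28.8% of its 50-base stretches with other genes, so its level is uncertain.

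Gstm6 was highest in the XEN line. It stood at 26.4, 24.3 and 30.0 FPKM in XEN, while no library of any other group passed 2.69 FPKM. On day 10 it was at 2.69, 0.913 and 1.97 FPKM with CHIR and at 0.126, 0.116 and 0.475 FPKM without. That difference was called (1.17 ± 0.27, adjusted p = 0.000671), and it fell to 0.96 without RA/CHIR-10d replicate 1. In RA/CHIR-16d, the group called XEN-like, Gstm6 had 1.33, 0.469 and 1.90 FPKM and was lower than in XEN by -3.69 ± 0.27.

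**Figure D2:**
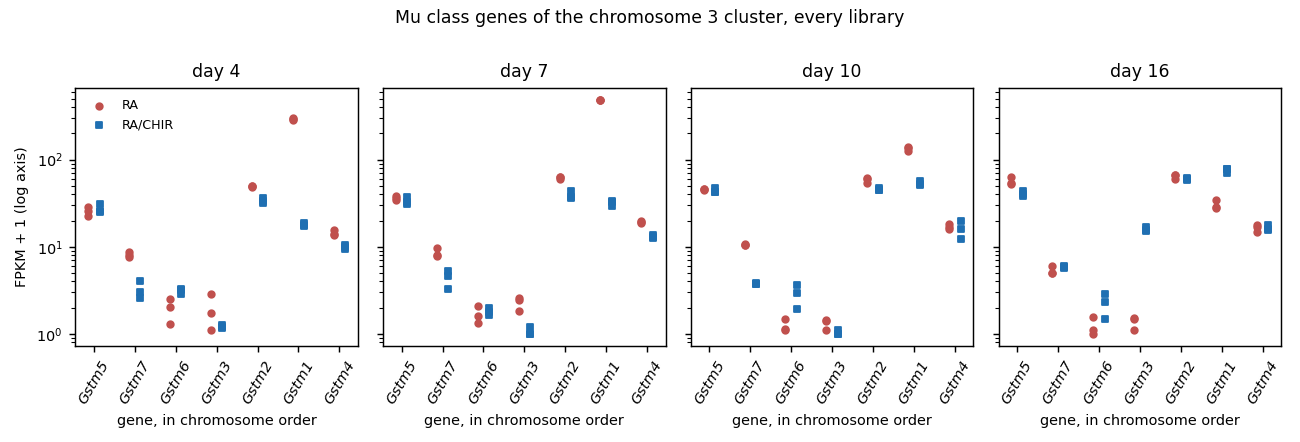
FPKM + 1 (log axis) of the 7 mu class genes in chromosome order, with 1 panel per day and 1 point per library, 3 per arm. Gstm1 stands apart between the arms on days 4 and 7 (283 to 489 FPKM with RA alone against 16.2 to 32.3 FPKM with CHIR), while the points of Gstm5 lie close together, and Gstm3 stands at 14.3 to 15.7 FPKM with CHIR on day 16.

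Alpha class transferases act on products of lipid peroxidation, and Gsta4 has the aldehyde hydroxynonenal as its known substrate. Gsta4 was the most abundant transferase of mES, at 374, 363 and 476 FPKM, and held 54.5% of all transferase FPKM there. On day 7 it stood at 228, 230.5 and 229 FPKM with RA alone and at 54.2, 53.5 and 53.2 FPKM with CHIR. On day 10 it stood at 170.0, 181 and 194 FPKM against 52.3, 49.0 and 44.3 FPKM. The groups were far apart on both days, with changes of -2.08 ± 0.11 and -1.89 ± 0.11 (adjusted p = 9.55e-15 and 3.93e-14). By day 16 the arms overlapped, at 110 to 152 FPKM with RA and 130.5 to 135 FPKM with CHIR, a change of 0.08. SMC had 1.48, 1.88 and 2.01 FPKM and XEN 103, 105 and 137 FPKM.

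The other alpha genes were scarce. Gsta3 peaked at a mean of 5.53 FPKM in RA-7d and was lower with CHIR on days 7 and 10 (-2.20 ± 0.20 and -1.81 ± 0.20). Gsta1 and Gsta2 were higher with CHIR on day 16 (2.11 ± 0.20 and 1.25 ± 0.15), with Gsta1 at 4.16, 5.30 and 4.39 FPKM in RA/CHIR-16d and 0.948, 0.124 and 0 FPKM in RA-16d. The differences of Gsta2 from RA/CHIR-16d to other groups are descriptions, as it passed the filter through that group alone. On day 7 Gsta1 was the other way round, at 2.07 to 2.09 FPKM with RA and at most 0.188 FPKM with CHIR (-1.54 ± 0.20). Gsta1 shares 90.5% and Gsta2 49.8% of their 50-base stretches with other genes. Gsta1 shares 75.7% with the near copy Gm3776, and Gsta2 shares 36.0% with Gsta1. Reads that lie wholly in shared stretches cannot be told apart, so the levels of both genes are uncertain.

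The pi class, known for the conjugation of drugs and for binding stress kinases, held 1 abundant and 2 minor genes within 24.2 kb of chromosome 19. Gstp1 ran between 109 and 265 FPKM over the 33 libraries, and was called on no day (changes of -0.21 to 0.45). Gstp2 was at 24.9, 28.5 and 23.3 FPKM in mES. With RA alone it stood at 5.72, 5.54 and 1.97 FPKM on day 4 and at 1.69, 2.36 and 2.54 FPKM on day 16. With CHIR it stood at 13.4, 11.5 and 12.8 FPKM on day 4 and at 20.9, 21.4 and 21.5 FPKM on day 16. The groups did not overlap, and Gstp2 was higher with CHIR on all 4 days, by 1.42 ± 0.28, 1.42 ± 0.28, 2.06 ± 0.28 and 2.81 ± 0.28. Gstp3 was higher on day 16 (1.47 ± 0.22), at 4.49, 3.01 and 2.59 FPKM against 0.467 to 0.659 FPKM. Gstp2 shares 54.3% of its 50-base stretches with other genes, mostly Gstp1, and the pseudogene Gstp-ps ran at 36.9 to 57.5 FPKM in the RA arm and 58.5 to 99.8 FPKM in the RA/CHIR arm. Gstp1 in turn shares 33.7% of its 50-base stretches with Gstp2. The part of such shared reads in the values of Gstp1 and Gstp2 was not tested.

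Theta class transferases, an old branch of the family that handles small halogenated molecules, sit within 63.3 kb of chromosome 10. Gstt1 was highest in RA-16d, at 67.8, 51.8 and 67.2 FPKM, with no other group above 13.97 FPKM in any library. On the same day the RA/CHIR libraries had 5.10, 1.60 and 5.48 FPKM. On day 10 the levels were 13.97, 13.2 and 10.95 FPKM with RA and 0.518, 0 and 0.935 FPKM with CHIR. The arms were apart on all 4 days, with changes of -1.81 ± 0.25, -1.48 ± 0.25, -3.25 ± 0.25 and -3.74 ± 0.25. XEN was listed at 0 in all 3 libraries, and SMC had 3.29, 6.03 and 3.41 FPKM. The neighbour Gstt3 was lower with CHIR on day 4, at 8.16, 7.60 and 8.16 FPKM against 15.6, 18.9 and 18.2 FPKM (-1.05 ± 0.13), a call lost without RA-4d replicate 2 (-0.996). Its changes on the later days were -0.48, -0.92 and -0.93 and were not called. Gstt2 was higher with CHIR on day 10 (1.18 ± 0.30, means of 14.1 and 5.80 FPKM), and without RA-10d replicate 3 the change was 0.97.

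Among the single-gene and small classes, differences were few. Gsto1, an omega class enzyme with thioltransferase activity, was higher with CHIR on day 16, at 148, 145 and 153 FPKM against 87.2, 66.4 and 68.5 FPKM (1.01 ± 0.08, adjusted p = 6.67e-11). The groups were apart, but the change sat at the threshold and was 0.93, 0.96 and 0.99 without RA-16d replicate 2, RA-16d replicate 3 and RA/CHIR-16d replicate 3. Gsto1 was at its highest in XEN, at 187, 169.7 and 175 FPKM. Gsto2 stayed at or under 2.46 FPKM. Gstz1, which acts in tyrosine breakdown, ran between 15.5 and 43.8 FPKM, and the mitochondrial and peroxisomal Gstk1 between 1.03 and 12.7 FPKM. Neither was called on any day, though Gstk1 had changes of 0.97 and 0.92 on days 7 and 16.

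The 3 microsomal genes parted from each other. They encode membrane proteins of the same superfamily: Mgst1 protects membranes against lipid peroxides, and Mgst2 can make a leukotriene as well. Mgst1 (chromosome 6, 138140316 to 138156755) was at 2.48 to 2.84 FPKM in mES. In the RA arm it had 68.8, 59.1 and 62.8 FPKM on day 7 and 185, 171 and 194 FPKM on day 16. With CHIR it had 13.2, 7.50 and 7.89 FPKM on day 7 and 16.8, 11.3 and 11.8 FPKM on day 16. The RA libraries thus climbed while the RA/CHIR libraries stayed at or under 16.8 FPKM throughout. The change was 0.50 on day 4, not called, then -2.65 ± 0.17, -3.33 ± 0.17 and -3.71 ± 0.17 (adjusted p = 3.27e-16 on day 16).

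Mgst2 (chromosome 3, 51660360 to 51682677), whose upstream sequence is printed above, took the opposite course. It was at 0 to 0.501 FPKM in mES and at 5.49 to 13.99 FPKM in the RA arm through day 10. With CHIR it stood at 33.5, 30.3 and 36.6 FPKM on day 10 and at 241, 239 and 242 FPKM on day 16. RA-16d had 13.6, 6.95 and 11.7 FPKM, so the arms were far apart, by 2.09 ± 0.25 on day 10 and 4.41 ± 0.25 on day 16 (adjusted p = 1.93e-14). Mgst3 stood at 262, 247 and 264 FPKM in RA/CHIR-16d and at 45.6, 39.7 and 46.6 FPKM in RA-16d, a change of 2.53 ± 0.15 (adjusted p = 1.02e-13). Its day 10 difference of 1.10 ± 0.15 came to 0.997 without RA/CHIR-10d replicate 2. The levels of Mgst2 and Mgst3 in XEN were far below those of RA/CHIR-16d, at 0.297 to 1.60 FPKM and 39.4 to 54.2 FPKM.

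**Figure D3:**
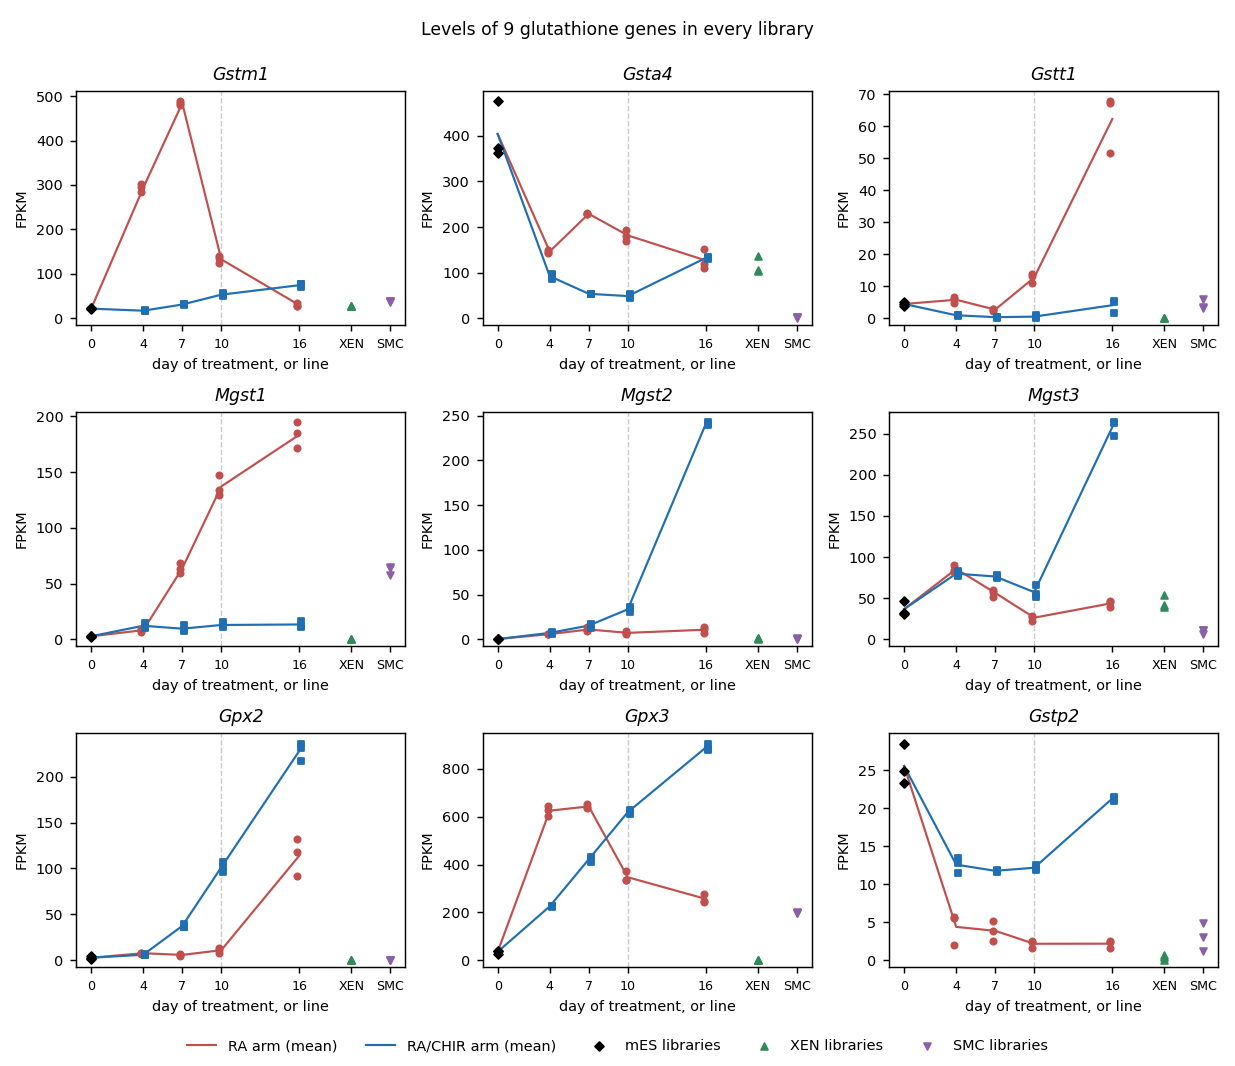
FPKM of 9 genes in each library (points) against day of treatment, with lines through the means of the 3 libraries of each arm from mES (day 0) and XEN and SMC at the right. The dashed line marks day 10, when the inducers were removed. Gstm1 peaks at 479.5 to 489 FPKM in RA-7d, Mgst2 reaches 239 to 242 FPKM in RA/CHIR-16d, and Gpx3 crosses between days 7 and 10.

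Of the 8 peroxidases 6 were tested. Gpx3, the secreted plasma form, reached 642, 628 and 604 FPKM in RA-4d and 225, 226 and 225 FPKM in RA/CHIR-4d, from 28.7 to 41.2 FPKM in mES. By day 16 the order had turned, with 278, 245 and 246 FPKM in RA and 878, 905 and 882 FPKM in RA/CHIR. The groups did not overlap on either day, and the changes were -1.47 ± 0.09 (adjusted p = 1.16e-12) and 1.79 ± 0.09 (adjusted p = 4.39e-15). On days 7 and 10 the changes were -0.61 and 0.83 and were not called. Gpx3 was nearly missing from XEN, at 0.249, 0.389 and 0.749 FPKM, and stood at 197, 196 and 202 FPKM in SMC.

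Gpx2, the epithelial form known from the gut, was called higher with CHIR on days 7, 10 and 16 and was not called on day 4. It was at 1 FPKM or more in all 27 libraries of mES and of the arms. On day 7 it had 36.8, 39.2 and 36.3 FPKM with CHIR and 5.99, 6.64 and 5.24 FPKM without. On day 10 it had 101, 95.7 and 107 FPKM against 8.48, 13.7 and 11.3 FPKM. The groups were far apart, by 2.47 ± 0.16 and 3.10 ± 0.16 (adjusted p = 1.57e-12 and 9.03e-15). On day 16 the RA arm had come up to 132, 92.2 and 118 FPKM, against 236, 231 and 217 FPKM with CHIR. That difference of 1.01 ± 0.16 was called but came to 0.86 without RA-16d replicate 2, 0.98 without RA/CHIR-16d replicate 1 and 0.996 without RA/CHIR-16d replicate 2. Gpx2 was listed at 0 in all 3 XEN and all 3 SMC libraries.

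The other peroxidases were called on no day. Gpx1, the common cytosolic form, ran between 253 and 736 FPKM, and Gpx4, which reduces lipid hydroperoxides within membranes, between 365 and 911 FPKM over all libraries. Their changes with CHIR lay between -0.19 and 0.32 and between -0.21 and 0.58. Gpx4 shares 34.7% of its 50-base stretches with the pseudogene Gpx4-ps2. Gpx7 and Gpx8, which sit in the endoplasmic reticulum, had changes between -0.52 and 0.19 and between -0.84 and 0.30. Both were at their highest in SMC (means of 125 and 268 FPKM), and Gpx7 was listed at 0 in XEN.

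Of the 4 enzymes that make and recycle glutathione, Gclm, the modifier subunit of glutamate-cysteine ligase, was the sole gene called in RA/CHIR against RA on any day. On day 10 it was at 48.2, 43.6 and 43.2 FPKM with CHIR and 19.3, 16.4 and 20.9 FPKM without (1.22 ± 0.14, adjusted p = 4.16e-08). The catalytic subunit Gclc had changes of -0.46, -0.67, -0.33 and 0.97, the last from means of 8.18 ± 0.56 FPKM in RA-16d and 17.0 ± 0.32 FPKM in RA/CHIR-16d (SD, n = 3). Gss, the synthetase, had changes between 0.03 and 0.76, and Gsr, the reductase, between -0.49 and 0.32. All 4 genes ran between 7.55 and 48.2 FPKM over the 33 libraries.

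Other genes of the pathway were read from 4 lists, which were also chosen with earlier results of these data known. They hold 70 distinct genes, of which 68 were tested. With CHIR, 9 were higher and 5 lower on day 4, 6 and 5 on day 7, 13 and 2 on day 10, and 9 and 10 on day 16. Of all genes, 7.63%, 10.7%, 15.4% and 21.3% were called on these days. The list of glutathione breakdown and precursor supply had 7 of 15 genes higher and 1 lower on day 4, 3 higher and 0 lower on day 7, and 7 higher and 0 lower on day 10, then 2 higher and 3 lower on day 16. These were 53.3%, 20%, 46.7% and 33.3% of the list, above the share of all genes on each day. Its median change was 0.76, 0.39, 0.84 and -0.44 on the 4 days. On day 10 the leading genes were Chac1, which degrades glutathione (11.6 against 0.533 FPKM, 3.06 ± 0.16), Cth, which makes cysteine (19.7 against 1.997 FPKM, 2.80 ± 0.18), and the amino acid transporter Slc1a4 (54.8 against 7.61 FPKM, 2.70 ± 0.08). On day 7 Slc1a4 and Cth were higher by 1.73 and 1.42, and on day 4 the gamma-glutamyltransferase Ggt1 by 1.24 and the aminopeptidase Anpep by 1.22. On day 16 Oplah, the oxoprolinase of glutathione breakdown, was higher by 2.24 ± 0.13.

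Among 24 Nrf2 factors and targets, 1 was higher and 3 lower on day 4, 2 and 5 on day 7, 4 and 1 on day 10, and 5 and 2 on day 16. These were 16.7%, 29.2%, 20.8% and 29.2% of the list, the last 2 near the share of all genes. Nfe2l2, which encodes Nrf2, stood at 97.3, 99.2 and 102 FPKM in RA-7d and at 38.5, 36.4 and 37.9 FPKM in RA/CHIR-7d, a change of -1.38 ± 0.04. Ugdh, which makes the donor for glucuronidation, was lower on days 4 and 7 (-1.66 and -1.63), as was the reductase Akr1b8 (-1.17 and -1.57). The ferritin subunit Fth1 was higher on day 4 (1.27). On day 16 the quinone reductase Nqo1 (1.86 ± 0.13) and Osgin1 (1.74 ± 0.23) were higher, and the epoxide hydrolase Ephx1 was lower on days 10 and 16 (-1.56 and -2.43). Of 20 other antioxidant enzymes, 1, 0, 0 and 0 were higher and 1, 1, 1 and 4 lower on the 4 days, which is 10%, 5%, 5% and 20% and thus near or under the share of all genes. They include catalase (Cat, -1.12 on day 4), Glrx (-1.03 on day 10), and Glrx3 and the peroxiredoxin Prdx2 (-1.24 and -1.21 on day 16). Of 12 genes of selenoprotein synthesis, 0, 1, 2 and 2 were higher and 0, 0, 0 and 1 lower (0%, 8.33%, 16.7% and 25%, near or under the share of all genes). The selenium carrier Selenop was higher by 1.33 on day 7.

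Against mES, both arms had changed many of these genes by day 4. In RA-4d 11 of 34 were higher and 5 lower (23.4% of all genes were called, 11.7% in each direction), and in RA/CHIR-4d 8 were higher and 4 lower (18.2% of all genes, 9.06% higher and 9.13% lower). In both arms Gpx3, Gpx8, Gstm2, Gsto1, Mgst1, Mgst2 and Mgst3 were higher and Gsta4, Gpx7 and Gstp3 lower than in mES. Gstm5 was higher in both as well (1.03 and 1.12), and these calls were lost without mES replicate 1 (0.89 and 0.98), the first also without RA-4d replicate 2 (0.96) and with TMM-kind scaling (0.99). The call of Gpx7 in RA-4d was lost without mES replicate 1 (-0.96), mES replicate 3 (-0.98) or RA-4d replicate 1 (-0.91) and with quantile normalization (-0.99). Gstm1 was 3.71 ± 0.07 above mES in RA-4d, and Gstt1 was lower than mES in RA/CHIR-4d (-1.51 ± 0.25). The 2 comparisons share the mES libraries.

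On day 16 against mES, 10 genes were higher and 6 lower in RA (36.7% of all genes called, 20.4% higher and 16.3% lower), and 13 were higher and 2 lower in RA/CHIR (36.3%, 18% higher and 18.3% lower), or 12 higher without Gsta2. The endoplasmic reticulum peroxidase Gpx8 rose in both, from 6.95 ± 1.37 FPKM in mES to 172 ± 21.8 and 95.3 ± 5.71 FPKM. In RA-16d the largest rise was that of Mgst1 (5.63 ± 0.17) and in RA/CHIR-16d that of Mgst2 (7.60 ± 0.25). Gsta4 was lower in both, by -1.67 ± 0.11 and -1.59 ± 0.11. Gpx4 was lower in RA-16d (-1.0003 ± 0.08), a call lost without mES replicate 1 or 3 or RA-16d replicate 2 or 3 (-0.99 to -0.90) and with quantile normalization (-0.91). The calls of Gsta2 and Gstp3 in RA/CHIR-16d were lost without mES replicate 3 (0.996 and -0.95).

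In the step from day 10 to day 16, after the inducers were removed, 11 of 34 genes in the RA/CHIR arm were higher and 0 lower on day 16 (14.8% of all genes were called, 8.47% higher and 6.28% lower), while in the RA arm 4 were higher and 1 lower (9.17% of all genes, 7.37% higher and 1.8% lower). In RA/CHIR the risers were Gsta1, Gsta2, Gsta4, Gstm3, Gstp3, Gstt1, Gstk1, Mgst2, Mgst3, Gpx2 and Gpx7 (10 without Gsta2), among them Mgst2 by 2.81 ± 0.25 and Mgst3 by 2.16 ± 0.15. The call of Gstp3 was lost without RA/CHIR-10d replicate 3 (0.91) or RA/CHIR-16d replicate 1 (0.95). In RA the risers were Gpx2 (3.25 ± 0.16), Gstt1 (2.20 ± 0.25), Gpx7 (1.65 ± 0.15) and Gstt2 (1.04 ± 0.30), and Gstm1 fell by 2.14 on the log2 scale. The call of Gstt2 was lost without RA-10d replicate 3 (0.82) or RA-16d replicate 1 (0.78), and with only these groups in the fit (adjusted p = 0.0688).

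The difference between the arms in that step was itself tested, as the change in RA/CHIR minus the change in RA. It was called higher for 10 genes and lower for 1 (14.8% of all genes called, 6.02% higher and 8.81% lower), or higher for 9 without Gsta2. The widest was Gstm3 (3.89 ± 0.34), followed by Gsta1 (2.94 ± 0.28) and Gstm1 (2.62 ± 0.10), and the lower one was Gpx2 (-2.09 ± 0.23). From day 4 to day 16 the difference was called higher for 12 genes and lower for 3 (25.5% of all genes called, 10.5% higher and 14.9% lower), or higher for 11 without Gsta2, and Gclc and Gclm were among the higher. Here Gstm1 led with 5.36 ± 0.10, and Mgst1 (-4.21 ± 0.24) and Mgst2 (4.16 ± 0.35) went opposite ways. In that test the calls of Gstp2 and Gstt1 were lost with a pseudocount of 0.1 (adjusted p = 0.0625 and 0.076).

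The reference lines differed in 17 of 34 genes: 6 were higher and 11 lower in XEN than in SMC (29.7% of all genes called, 12.5% higher and 17.2% lower). XEN was higher in Gsta4 (5.37 ± 0.11), Gstm6 (3.37 ± 0.27), Mgst3, Gstm7, Gstz1 and Gstp3, the last listed at 0 in all SMC libraries. SMC was higher in Gpx3, Gpx7, Gpx8, Mgst1, Gstm2, Gstm4, Gstm5, Gstp2, Gstt1, Gstt3 and Gclm. Mgst1 had 0.157 to 0.678 FPKM in XEN and 57.5 to 64.6 FPKM in SMC (-5.52 ± 0.17), and Gstm4 0.0938 ± 0.086 FPKM in XEN and 20.5 ± 3.84 FPKM in SMC (SD, n = 3).

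The XEN-like cells stood well apart from XEN in these genes. RA/CHIR-16d had 16 of 34 genes higher and 1 lower than XEN (23.2% of all genes called, 14.5% higher and 8.64% lower), the lower one being Gstm6. Without Gsta2, 15 were higher. The call of Gsta2 there was lost with quantile normalization (0.72). Gpx2, Gpx7, Gstm3 and Gstt1 were present in RA/CHIR-16d (means of 228, 28.1, 14.9 and 4.06 FPKM) and listed at 0 in XEN. Gpx3 had a mean of 888 FPKM against 0.462 FPKM, Mgst2 241 FPKM against 1.14 FPKM, and Mgst3 258 FPKM against 45.0 FPKM. The fibroblast list, at 414 FPKM or more in RA/CHIR-16d, was at 1.15 to 1.32 FPKM in XEN. The other marker lists were also higher in RA/CHIR-16d. Pluripotency genes summed to 958 to 1002 FPKM against 1.47 to 1.85 FPKM in XEN. Visceral endoderm genes had 953 to 1002 against 186 to 281 FPKM, and extraembryonic endoderm genes 1905 to 2074 against 975 to 1058 FPKM. Smooth muscle genes had 446 to 462 against 201 to 364 FPKM. The part of these lists in the differences was not tested. RA-16d had 9 genes higher and 6 lower than SMC (25.5% of all genes called, 15% higher and 10.5% lower). Higher were Gsta4 (5.51 ± 0.11), Gstt1 (3.62 ± 0.25), Gstt3, Gstz1, Gstm7, Mgst1, Mgst2, Mgst3 and Gpx2, and lower were Gstm2, Gstm6, Gstk1, Gpx7, Gclc and Gclm. Gstm2 had a mean of 63.4 FPKM against 245 FPKM in SMC, where it was the second transferase after Gstp1. The marker lists differed here too. Fibroblast genes summed to 2345 to 3041 FPKM in RA-16d against 10619 to 10955.5 FPKM in SMC, and smooth muscle genes to 7378 to 8323 against 17185 to 17808 FPKM. Extraembryonic endoderm genes had 402 to 439 against 51.2 to 53.3 FPKM. Visceral endoderm genes had 51.0 to 57.3 against 1.30 to 2.52 FPKM, and pluripotency genes 38.5 to 66.3 against 4.68 to 10.1 FPKM. The part of the lists in the differences from SMC was not tested.

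Summed over the 25 transferases, FPKM was 1364 ± 8.19 in RA-7d and 1311 ± 27.3 in RA/CHIR-16d (SD, n = 3), the 2 highest groups, against 742 ± 83.7 in mES. Their make-up differed. Gstm1 gave 35.5% of the sum in RA-7d, while Mgst3 and Mgst2 gave 19.7% and 18.4% in RA/CHIR-16d. In RA/CHIR-7d, the lowest group at 605 ± 14.4, Gstp1 led with 26.5%. The peroxidases summed to 2321 ± 61.0 FPKM in RA/CHIR-16d, 38.3% of it from Gpx3, and to 1410 ± 121 FPKM in RA-16d. Over all genes, FPKM summed to between 597010 and 1086370 in a library, and the sums given here were not rescaled for that.

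**Figure D4:**
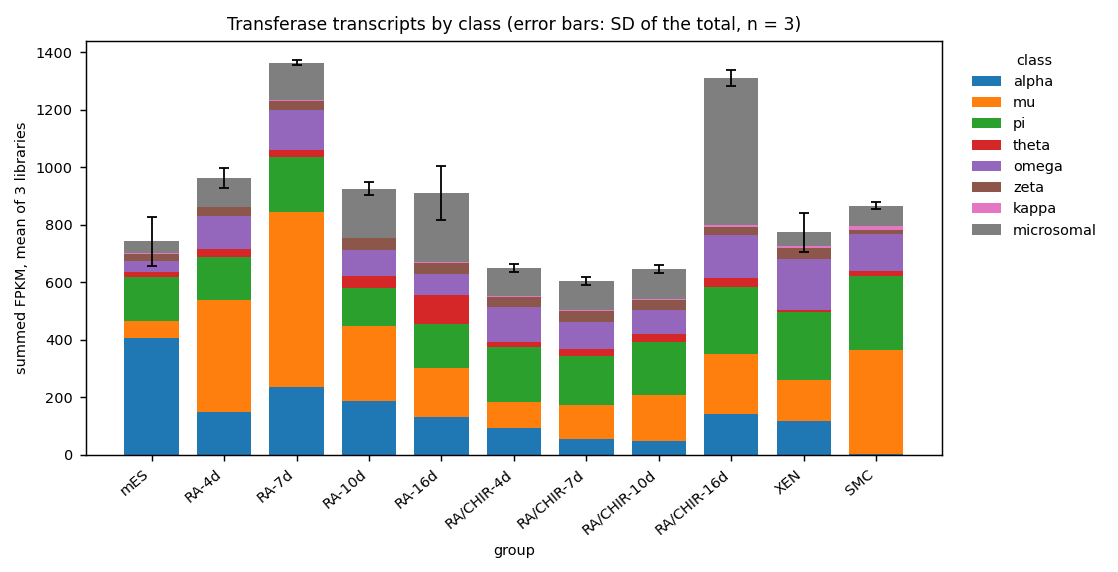
Summed FPKM of the transferases by class (stacked colours), as the mean of 3 libraries per group, with error bars for the SD of the total. Mu genes make up 389 and 608 FPKM of the RA-4d and RA-7d bars against 89.8 and 118 FPKM on the same days with CHIR, and microsomal genes make up 512 of 1311 FPKM in RA/CHIR-16d.

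As a description of likeness over the 11 group means of log2(FPKM + 1), 8 of them from the 2 treated arms that start from the same kind of cells, the closest pairs were Gsta2 with Gstm3 (Pearson r = 0.96), Gstm2 with Gpx8 (0.93), Gsta1 with Gsta2 (0.88) and Mgst2 with Gpx2 (0.87). Gsta1, Gsta2 and Gstm3 share reads with other genes as given above. Gsta2 passed the filter through RA/CHIR-16d alone, and Gsta1 and Gstm3 had their highest means in that group too. The pairs with Gsta2 thus lean on that group. The lowest pair was Gstm6 with Gstt3 (-0.96), with Gstm6 at its highest and Gstt3 at its lowest in XEN.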

How the data were processed

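The deposited table holds FPKM values for 33 libraries (11 groups, n = 3), as the authors computed them. Per the submitters' processing notes, Trimmomatic 0.33, HISAT2 2.0.4, Cufflinks, Cuffdiff and build GRCm38 were used, with roles and parameters not given in the sources used here. Per the labels' protocols, libraries were poly(A)-selected and read as paired 150 bp reads, stated as about 25M for each library. Counting is not stated to use strand, and reads shared by near copies may be split or lost. Depth per value is unknown, so no counting interval is given.

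Values were analysed as log2(FPKM + 1), which understates changes of low genes. The 16508 genes with at least 1 FPKM in at least 3 libraries were fitted with limma 3.58.1 (R 4.3.3) in 1 model of the 11 group means with a variance trend (22 residual and 3.1 prior degrees of freedom), and p-values are two-sided. The procedure was tested on simulated data. Errors of FPKM are SD, those of changes standard errors. The 15 comparisons and the thresholds are given in the report.

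Sharing with other genes is the share of distinct 50-base stretches of GENCODE M21 transcripts that occur in another gene. Promoters come from RefSeq (GRCm38.p6). Library values are printed for the 13 genes whose mean reached 20 FPKM in a group and a call in RA/CHIR against RA, and other genes are given by range and calls, with library values added for some after their values were seen. Of the pathway lists, up to 3 called genes per direction and day with at least 5 FPKM in the higher group are named, with the largest change, and Nfe2l2 is given by library. Members and lists were chosen with earlier results of these data known. Alternatives were TMM-kind and quantile scaling, a pseudocount of 0.1, no filter or at least 5 FPKM, dropping the variance trend, fitting just the groups compared, a replicate block, no minimum fold change, and leaving out each library. Figures were drawn with matplotlib 3.10.9 in Python 3.11.15.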

Additional observations from a re-analysis of the deposited data

Results flagged for a closer look

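The step from day 10 to day 16 differed between the arms for 10 genes, by a test of the difference itself (change in RA/CHIR minus change in RA, log2 scale ± standard error, limma with Benjamini-Hochberg adjustment over all genes). It was higher for Gstm3 (3.89 ± 0.34), Gsta1 (2.94 ± 0.28), Gstm1 (2.62 ± 0.10), Mgst2 (2.32 ± 0.35), Gsta4 (1.96 ± 0.15), Gstm7 (1.62 ± 0.28), Mgst3 (1.43 ± 0.22), Gclc (1.31 ± 0.12) and Gsto1 (1.14 ± 0.12). It was lower for Gpx2 (-2.09 ± 0.23). The adjusted p ran from 4.51e-17 for Gstm1 to 3.53e-05 for Gstm7. Of all genes, 14.8% were called in this test, 6.02% higher and 8.81% lower. Gsta1 and Gstm3 share 90.5% and 28.8% of their 50-base stretches with other genes, so their levels are uncertain.

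The step from day 4 to day 16 differed between the arms for 14 genes by the same kind of test. It was higher for Gstm1 (5.36 ± 0.10), Mgst2 (4.16 ± 0.35), Gstm3 (4.09 ± 0.34), Gpx3 (3.26 ± 0.13), Gsta1 (2.77 ± 0.28), Mgst3 (2.63 ± 0.22), Gstm7 (1.48 ± 0.28), Gclc (1.43 ± 0.12), Gstp2 (1.39 ± 0.40), Gpx2 (1.31 ± 0.23) and Gclm (1.23 ± 0.20). It was lower for Mgst1 (-4.21 ± 0.24), Gstt1 (-1.93 ± 0.36) and Gpx8 (-1.13 ± 0.14). The adjusted p ran from 3.78e-24 for Gstm1 to 0.00398 for Gstp2. Of all genes, 25.5% were called in this test, 10.5% higher and 14.9% lower. The calls of Gstp2 and Gstt1 were lost with a pseudocount of 0.1 (adjusted p = 0.0625 and 0.076). Gsta1, Gstm3 and Gstp2 share stretches with other genes as given above. Both tests share the day 16 libraries. Gsta2 is left out of both counts, since it passed the filter through RA/CHIR-16d alone, and its values of 1.32 and 1.35 are a description. Gpx8 passes here, and Gclc in both tests, although the difference between the arms was called on no single day for either gene.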

How the results depend on the processing

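Of 191 calls of these genes over the 15 comparisons, 162 were kept under every alternative run and 18 were lost under at least 1, of which 15 were lost on leaving out 1 library. The filter of 5 FPKM left 13 calls untested, all of Gsta1 and Gsta2, and 11 of these were lost under no other alternative. No called change reversed under any alternative. Without a minimum fold change, the members called came to 23, 20, 24 and 25 in RA/CHIR against RA on days 4, 7, 10 and 16, to 26 in RA/CHIR-4d and 28 in RA/CHIR-16d against mES, to 17 and 25 from day 10 to day 16 in RA and RA/CHIR, to 19 and 24 for the differences between the arms over days 10 to 16 and 4 to 16, to 27 in RA/CHIR-16d against XEN and to 27 in RA-16d against SMC. Of all 16508 genes, the same setting called 7084, 7812, 9112 and 10216 in RA/CHIR against RA on the 4 days. It called 9966 and 12128 in RA/CHIR-4d and RA/CHIR-16d against mES, and 6869 and 9086 from day 10 to day 16 in RA and RA/CHIR. For the 2 differences between the arms it called 7154 and 9341, against XEN 10503 and against SMC 10948. Over all comparisons it gave between 6869 and 12280 calls over all genes, against 1259 to 6057. A pseudocount of 0.1 gave 2192, 2964 and 3888 calls over all genes for RA/CHIR against RA on days 4, 7 and 10, against 1259, 1762 and 2546. It gave 2339 and 3820 from day 10 to day 16 in RA and RA/CHIR, against 1514 and 2435. On leaving out 1 library, the members called were 5 to 6, 9 to 11, 12 to 14 and 12 to 14 in RA/CHIR against RA on the 4 days, and 10 to 11 from day 10 to day 16 in RA/CHIR. Over all genes the calls were then 1266 to 1282, 1777 to 1804, 2567 to 2600 and 3536 to 3593, and 2454 to 2475. With quantile normalization, the share of higher calls over all genes was 69.9% in place of 80.4% for RA-16d against RA-10d, and 50.4% in place of 62.7% for RA/CHIR-16d against XEN. Libraries with the same replicate number correlated between -0.08 and 0.11 in their deviations, and in 0 of 13 comparisons were all 3 over 0.1. In RA/CHIR against RA on days 4 and 7, 6 of 6 libraries correlated best with their own number, and on days 10 and 16, 1 and 2 of 6. With the replicate number as a block, 6, 9, 13 and 13 members were called on the 4 days, 0 calls were lost and no count of members called moved. Over all genes that block gave 1260, 1764, 2544 and 3514 calls on the 4 days. No depth can be given for single values.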

Other observations

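Slc7a11, the cystine importer that often limits glutathione synthesis, was picked for mention after its values were seen. Its means lay between 0.116 and 0.509 FPKM in the 8 treated groups and at 0.199 ± 0.096 FPKM in mES, against 2.16 ± 0.04 FPKM in SMC (SD, n = 3). Keap1, the inhibitor of Nrf2, was also picked afterwards and had means of 20.4 to 28.6 FPKM in the treated groups, while mES had 12.2 ± 0.33 FPKM.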
